A study of Mus musculus with 8 samples.

Results

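The epithelial keratins Krt5, Krt14, Krt15, Krt17, Krt8, Krt18 and Krt19 were followed in RNA of mouse olfactory mucosa, the nasal tissue that carries the olfactory neurons, their supporting cells and glands. Every probe set whose platform symbol, older alias or gene ID named one of these 7 genes was taken, which gave 11 of the 12488 probe sets of the array, for 7 of its 8252 named genes. Of these, 6 belonged to the keratins of basal cells (Krt5, Krt14, Krt15, Krt17) and 5 to those of simple epithelium (Krt8, Krt18, Krt19). The 8 single-colour arrays formed 4 groups of 2: mice labelled Ccl3-/- and injected with CCL3, mice so labelled and injected with carrier, C57BL/6 mice injected with CCL3, and C57BL/6 mice injected with carrier. CCL3 is a chemokine that attracts macrophages, and the title of the series asks how it acts on their recruitment into the olfactory epithelium. All groups, the C57BL/6 carrier group included, had both olfactory bulbs removed, so the olfactory neurons had lost the tissue they project to. The labels give no age, dose, time after surgery or allele design, and they do not say whether a replicate was 1 animal or a pool, so the spread between replicates may be technical.

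Keratins are the intermediate filament proteins of epithelial cells, and each filament is built from pairs of a type I and a type II chain. Krt8 is the type II partner of Krt18 in simple epithelia, and Krt19 is a type I chain found in many simple and ductal epithelia. In the olfactory epithelium Krt8 and Krt18 mark the sustentacular (supporting) cells and gland cells, while Krt5 and its type I partner Krt14 mark the horizontal basal cells, a reserve stem cell on the basement membrane. Krt15 is a further type I chain of basal keratinocytes, and Krt17 is a type I chain known from skin appendages and from wounded or activated epithelium.

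Of the 11 keratin probe sets, 7 were above the filter on dim signals, an intensity of 362.7 (the 40th percentile of the table) on at least 2 arrays. They covered Krt8, Krt18, Krt19 and Krt17, whereas Krt5, Krt14, Krt15 and a second probe set of Krt18 exceeded it on 0 of 8 arrays and were not tested. Intensities of different probe sets depend on their probes and were not set against each other. Over all arrays the median intensity ranged from 581.4 to 660.3. The C57BL/6 carrier replicate 1 had a Gapdh 3′ to 5′ signal ratio of 2.59, against 0.755 to 1.31 on the other arrays. The same ratio for beta-actin did not stand out upward there: it was 1.58, the lowest of all arrays, against 1.61 to 2.17 on the others. The Ccl3 probe set read 727.3 to 812.2 on the arrays labelled Ccl3-/- and 159.4 to 386.5 on the C57BL/6 arrays. It was thus higher where the label names a knockout of this gene. Whether this goes against the labels cannot be told, as the allele design and the part of the gene that the probes read are not given. The genotype names below are therefore those of the labels.

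The simple epithelial keratins were bright on every array and separated replicates more than groups. Krt8 read 10385.3 and 11264.7 in Ccl3-/- mice given CCL3, 11225.4 and 14245.6 in Ccl3-/- mice given carrier, 11633.1 and 14094.5 in C57BL/6 mice given CCL3, and 13332.3 and 10870.3 in C57BL/6 mice given carrier (replicate 1 first). Krt18, by its brighter probe set, read 17032.7 and 19279.5 in Ccl3-/- mice given CCL3, 19312.1 and 29220.1 in Ccl3-/- mice given carrier, 17208.8 and 21354.2 in C57BL/6 mice given CCL3, and 25485.1 and 17879.4 in C57BL/6 mice given carrier. Krt19 read 3963.9 and 6517.2 in Ccl3-/- mice given CCL3, 5427.8 and 12590.3 in Ccl3-/- mice given carrier, 4002.4 and 10553.8 in C57BL/6 mice given CCL3, and 6885.3 and 5102.3 in C57BL/6 mice given carrier. The 3 highest arrays were the same for all 3 genes: Ccl3-/- carrier replicate 2, C57BL/6 CCL3 replicate 2 and C57BL/6 carrier replicate 1. They come from 3 different groups. These were also the 3 highest arrays of 2.5% of the 8150 probe sets tested.

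The size of the spread differed between the 3 genes. From the lowest to the highest array Krt8 varied 1.37-fold, Krt18 varied 1.72-fold and Krt19 varied 3.18-fold. Within the Ccl3-/- carrier group the replicates of Krt19 stood 2.32-fold apart, and within the C57BL/6 CCL3 group 2.64-fold. In each of the 4 groups the same replicate was the higher one for Krt8, Krt18 and Krt19, an order that 7.17% of all tested probe sets shared. The brightest probe set of the basal keratin Krt17 had this order too, while the other Krt17 probe sets did not. A second, dimmer probe set of Krt19, of the kind whose probes the maker marks as shared within a sequence family, ranged from 112.5 to 796.5 and followed this order except in the C57BL/6 carrier group. The second probe set of Krt18 lay between 51.1 and 134.4 on all arrays, under the filter, although the gene's other probe set was among the bright ones.

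**Figure D1:**
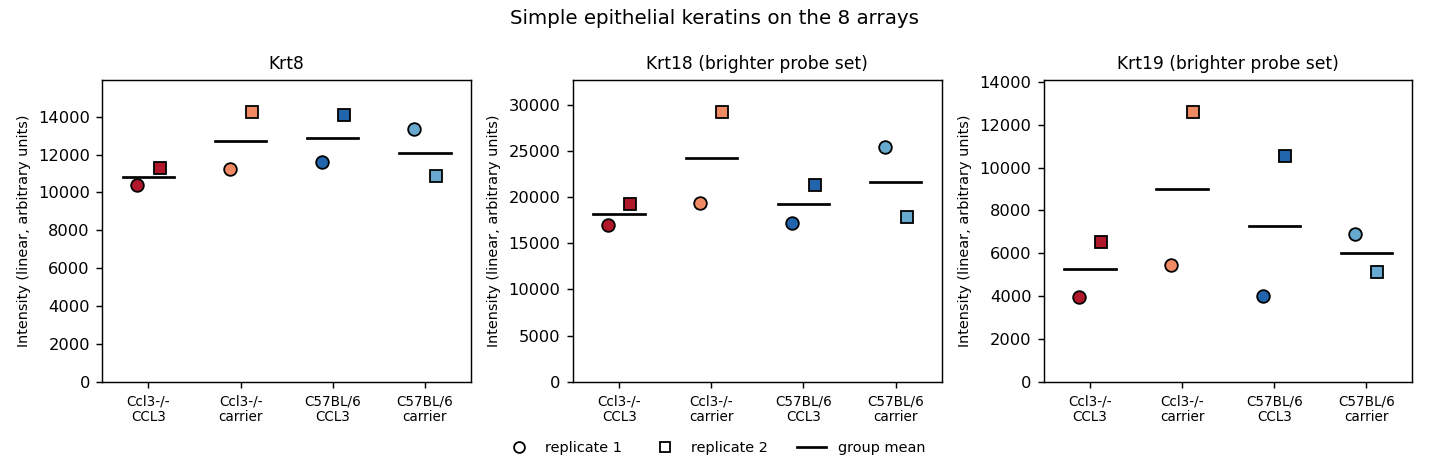
Intensity (linear scale, arbitrary units) of Krt8, Krt18 and Krt19 on each of the 8 arrays, by group; circles are replicate 1, squares replicate 2 and bars the mean of 2 arrays. Replicates of Krt19 lie up to 2.64-fold apart within a group, and group means overlap the spread between replicates.

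Across the 8 arrays Krt8, Krt18 and Krt19 varied together. On the scale log2(intensity + 102.3), Krt18 against Krt19 gave Pearson r = 0.85 (exact permutation p = 0.0111, adjusted 0.0249) and Spearman rho = 0.95 (exact permutation p = 0.00114, adjusted 0.0103). Krt8 against Krt18 gave r = 0.86 (exact permutation p = 0.00645, adjusted 0.0194) and rho = 0.81 (exact permutation p = 0.0218, adjusted 0.0490). Krt8 against Krt19 gave r = 0.88 (exact permutation p = 0.00322, adjusted 0.0145) and rho = 0.86 (exact permutation p = 0.0107, adjusted 0.0482). With the 2 arrays farthest from the median of the first-named gene left out, r was 0.97, 0.89 and 0.62 for these pairs in the same order. The 2 probe sets of Krt19 gave r = 0.91 (exact permutation p = 0.00243, adjusted 0.0145) and rho = 0.81 (exact permutation p = 0.0218, adjusted 0.0490), with r = 0.86 without the 2 farthest arrays. The tests were two-sided and adjusted by Benjamini-Hochberg over 9 pairs, and all genes of an array share its RNA, dissection and scaling.

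Krt8 and Krt18 are adjacent coding genes on chromosome 15 in the GRCm38.p6 gene table, transcribed from opposite strands, and their start regions are shown because the genes are filament partners and varied together. Each sequence runs from 250 bases before the annotated RefSeq start to 20 bases after it, on the gene's own strand, and capitals mark the letters TATAA or their reverse complement. The 3 motifs searched on both strands were TATAA, found in 23.7% of 32851 RefSeq windows of the same length, GGGCGG, found in 34.1%, and TGANTCA, found in 7.23%.
Krt8, chr15:102004323-102004592, minus strand: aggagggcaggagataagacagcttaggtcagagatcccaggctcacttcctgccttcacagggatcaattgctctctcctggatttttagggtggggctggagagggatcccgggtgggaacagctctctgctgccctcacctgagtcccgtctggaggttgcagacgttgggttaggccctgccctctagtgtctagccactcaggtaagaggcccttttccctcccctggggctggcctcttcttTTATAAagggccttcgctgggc
Krt18, chr15:102027966-102028235, plus strand: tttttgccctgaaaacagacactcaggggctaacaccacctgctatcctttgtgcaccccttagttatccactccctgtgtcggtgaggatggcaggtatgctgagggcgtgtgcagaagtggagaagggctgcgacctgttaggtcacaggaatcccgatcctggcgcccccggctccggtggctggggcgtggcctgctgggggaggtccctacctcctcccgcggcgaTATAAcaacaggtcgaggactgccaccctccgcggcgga
Both windows held TATAA, in Krt8 as overlapping matches on both strands and in Krt18 as 1 match, and neither held the other motifs. The windows of Krt5 and Krt14, not shown, held none of the 3. Whether these letters bear on the shared variation was not tested. A match is a description of the letters and not of a bound site.

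Among the basal cell keratins, Krt5, Krt14 and Krt15 gave signals too dim to compare. Krt5 read 76.6 and 220.2 in Ccl3-/- mice given CCL3, 132.7 and 195.9 in Ccl3-/- mice given carrier, 49 and 120.6 in C57BL/6 mice given CCL3, and 239 and 114.7 in C57BL/6 mice given carrier. Krt14 read 38.4 and 40.4 in Ccl3-/- mice given CCL3, 206 and 60.9 in Ccl3-/- mice given carrier, 78.4 and 62.5 in C57BL/6 mice given CCL3, and 73.7 and 66.6 in C57BL/6 mice given carrier. Krt15 lay between 8.7 and 17.6 on 6 arrays and reached 32.6 and 95.1 on the C57BL/6 carrier arrays. All 24 of these values were under the filter, so their order carries no call, and no detection flags were used here. Trp63, the transcription factor that defines horizontal basal cells, was above the filter on all arrays, at 561.5 and 663.5 in Ccl3-/- mice given CCL3, 1174.4 and 921.1 in Ccl3-/- mice given carrier, 646.3 and 559.9 in C57BL/6 mice given CCL3, and 833.7 and 713.7 in C57BL/6 mice given carrier.

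Krt17 was the 1 basal keratin measured above the filter, by 3 probe sets that did not behave alike. Its brightest one, of the family type (_f_), read 699.4 and 784 in Ccl3-/- mice given CCL3, 731.3 and 2252 in Ccl3-/- mice given carrier, 613 and 957.5 in C57BL/6 mice given CCL3, and 422.9 and 359.6 in C57BL/6 mice given carrier. Ccl3-/- carrier replicate 2 stood far above the others, and the C57BL/6 carrier arrays were the lowest. A probe set drawn from the same sequence record, of the incomplete type (_i_), read 732.2 and 585.3 in Ccl3-/- mice given CCL3, 726.2 and 1694.4 in Ccl3-/- mice given carrier, 674.9 and 965 in C57BL/6 mice given CCL3, and 298.1 and 712.8 in C57BL/6 mice given carrier. The remaining one (_r_), from another record, read 490.4 and 538.1 in Ccl3-/- mice given CCL3, 405.6 and 391.2 in Ccl3-/- mice given carrier, 383.2 and 552.3 in C57BL/6 mice given CCL3, and 581.3 and 546 in C57BL/6 mice given carrier. It was highest in C57BL/6 carrier replicate 1 and had its lowest Ccl3-/- reading on the array where the brightest one peaked. Over the 8 arrays the _f_ and _i_ probe sets gave r = 0.83 (exact permutation p = 0.0277, adjusted 0.0499) and rho = 0.64 (exact permutation p = 0.0962, adjusted 0.172), with r = 0.90 without the 2 farthest arrays. The _f_ and _r_ probe sets gave r = -0.51 (exact permutation p = 0.205, adjusted 0.205) and rho = -0.26 (exact permutation p = 0.536, adjusted 0.536), with r = -0.05 without those arrays. Against Krt8, Krt18 and Krt19 the _f_ probe set gave r = 0.54, 0.57 and 0.70 (exact permutation p = 0.165, 0.139 and 0.0488, adjusted 0.185, 0.178 and 0.0732) and rho = 0.55, 0.48 and 0.62 (exact permutation p = 0.171, 0.243 and 0.115, adjusted 0.220, 0.273 and 0.172). These relations rested on Ccl3-/- carrier replicate 2 and C57BL/6 carrier replicate 2, without which r was -0.04, -0.41 and 0.34. Krt17 has close relatives among the type I keratins, and a probe set whose probes are shared within a sequence family can collect signal from them.

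**Figure D2:**
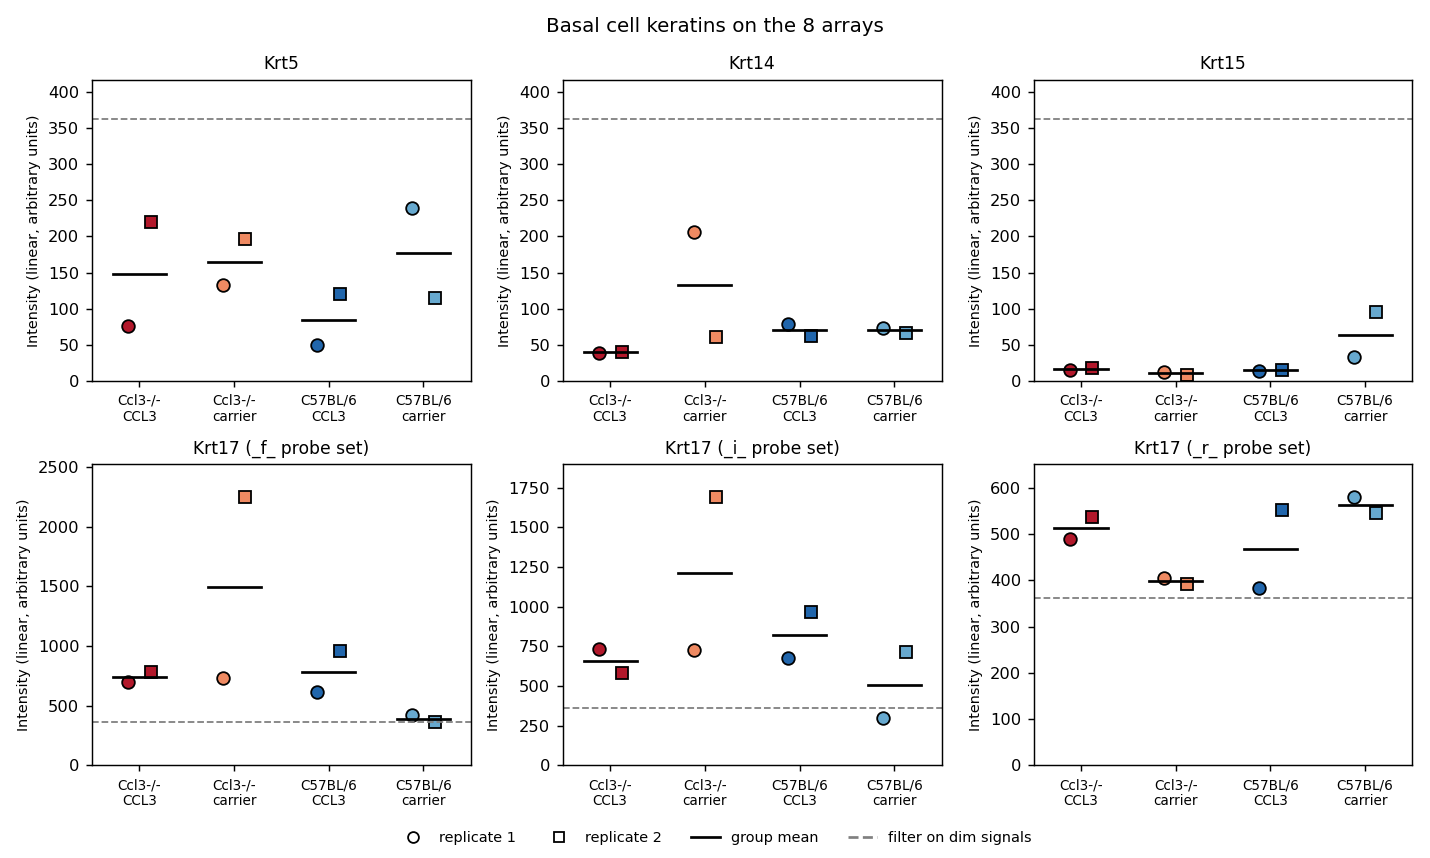
Intensity (linear scale, arbitrary units) of Krt5, Krt14, Krt15 and the 3 probe sets of Krt17 on each of the 8 arrays, by group; circles are replicate 1, squares replicate 2, bars the mean of 2 arrays, and the dashed line the filter at 362.7. Krt5, Krt14 and Krt15 lie under the line on all arrays, and the _r_ probe set of Krt17 runs opposite to the _f_ one after carrier.

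After carrier injection, the 2 related Krt17 probe sets were higher in Ccl3-/- than in C57BL/6 mice, without passing the threshold of an adjusted p of 0.05 over all probe sets. The brightest averaged 1492 ± 1075 in Ccl3-/- mice and 391 ± 44.8 in C57BL/6 mice (SD, n = 2 each), a log2 difference of 1.51 ± 0.44 (SE; 2.84-fold; adjusted p = 0.375 in limma). The _i_ probe set had a log2 difference of 1.09 ± 0.44 (SE; adjusted p = 0.412 in limma). The _r_ probe set pointed the other way at -0.41 ± 0.29 (SE; adjusted p = 0.576 in limma). In each of the 3 the groups did not overlap, which held for 38.5% of all tested probe sets. The C57BL/6 carrier side of the brightest probe set, at 422.9 and 359.6, lay close to the filter on dim signals of 362.7. For the _i_ probe set that side was at 298.1, under the filter, and 712.8. Ccl3-/- carrier replicate 2 weighed heavily here: without it the difference of the brightest probe set was 0.76, and without Ccl3-/- carrier replicate 1 it was 2.26. The _i_ probe set gave 0.54 without Ccl3-/- carrier replicate 2 and 1.65 without Ccl3-/- carrier replicate 1. Without C57BL/6 carrier replicate 1, the array with the high Gapdh ratio, the _f_ probe set gave 1.60 and the _i_ probe set 0.58, and without C57BL/6 carrier replicate 2 they gave 1.42 and 1.61. That first C57BL/6 array also had low readings of the gland lipocalin genes Lcn3 (92.4, against at least 11525.7 elsewhere) and Lcn4 (22.4, against at least 2124.3 elsewhere), while the gland gene Wfdc18 (59337.0) had its second highest reading there, all 3 chosen after their values were seen.

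The simple keratins did not separate the genotypes after carrier. Krt8 differed by 0.07 ± 0.25 on the log2 scale (SE; 95% confidence interval -0.48 to 0.62), Krt18 by 0.15 ± 0.28 (-0.48 to 0.79) and Krt19 by 0.47 ± 0.50 (-0.64 to 1.59), with overlapping groups. Of the 7 keratin probe sets tested, 0 passed the adjusted threshold, as did 0% of all probe sets in limma. At an unadjusted p under 0.05 there were 2, both of Krt17 and both higher, against 11.4% of all probe sets in either direction and 5.03% of all probe sets in the higher direction. The median log2 difference was 0.47 over the 7 and -0.03 over all probe sets tested. The 7 stand for 4 genes, and with the brightest probe set of each the median was 0.31. Of 11 leukocyte markers tested in the same comparison, 8 were higher in Ccl3-/- mice and 0 passed the adjusted threshold. At an unadjusted p under 0.05 3 were higher, among them the neutrophil genes Ngp (log2 difference 2.42 ± 0.53 SE) and S100a8 (1.74 ± 0.68), and 2 were lower, the B cell genes Ms4a1 (-0.84 ± 0.28) and Cd79a (-0.81 ± 0.36). The mean level of the list, centred on all arrays, was 0.45 and 0.10 on the Ccl3-/- carrier arrays and -0.27 and -0.46 on the C57BL/6 carrier arrays. Their part in the keratin values was not tested. In bulk RNA, a change in the number of epithelial cells cannot be told apart from a change in the RNA of each cell.

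After CCL3 injection the genotypes lay close together. The brightest Krt17 probe set averaged 742 ± 59.8 in Ccl3-/- mice and 785 ± 244 in C57BL/6 mice (SD, n = 2 each), a log2 difference of -0.05 ± 0.44 (SE; -1.02 to 0.93). The _i_ probe set was at -0.27 ± 0.44 and the _r_ probe set at 0.13 ± 0.29. Krt8 averaged 10825.0 ± 622 in Ccl3-/- mice and 12864 ± 1740 in C57BL/6 mice (SD, n = 2 each), and its groups did not overlap, which held for 29.4% of all tested probe sets. Its log2 difference of -0.24 ± 0.25 (SE; adjusted p = 1.00 in limma; -0.79 to 0.31) was no larger than its error. Krt18 differed by -0.08 ± 0.28 (-0.71 to 0.55) and Krt19 by -0.35 ± 0.50 (-1.47 to 0.77). Of the 7 probe sets, 0 passed the adjusted threshold (0% of all) and 0 reached an unadjusted p under 0.05 (1.48% of all).

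In Ccl3-/- mice, CCL3 against carrier went with lower readings of 6 of 7 keratin probe sets, none past the threshold. The brightest Krt17 probe set differed by -0.73 ± 0.44 (SE; adjusted p = 0.940 in limma), Krt19 by -0.69 ± 0.50, Krt18 by -0.39 ± 0.28 and Krt8 by -0.22 ± 0.25. The groups of Krt18 did not overlap, at 17032.7 and 19279.5 after CCL3 and 19312.1 and 29220.1 after carrier, with 38.9% of all tested probe sets also not overlapping. The _r_ probe set of Krt17 was the exception at 0.30 ± 0.29, with 490.4 and 538.1 after CCL3 and 405.6 and 391.2 after carrier. The median over the 7 was -0.69, and -0.54 over the 4 genes by their brightest probe sets, against 0.03 over all probe sets tested. Of the 7, 0 reached an unadjusted p under 0.05 (4.9% of all) and 0 the adjusted threshold (0% of all). Without Ccl3-/- carrier replicate 2 the brightest Krt17 probe set was at 0.02, Krt19 at -0.09, Krt18 at -0.09 and Krt8 at -0.05.

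In C57BL/6 mice, CCL3 against carrier gave 4 keratin probe sets higher and 3 lower. The brightest Krt17 probe set was at 613 and 957.5 after CCL3 and at 422.9 and 359.6 after carrier, a log2 difference of 0.82 ± 0.44 (SE; adjusted p = 0.911 in limma). Those groups did not overlap, nor did those of 30.1% of all tested probe sets. The _i_ probe set of Krt17 was at 0.67 ± 0.44 and the _r_ probe set at -0.24 ± 0.29, both with overlapping groups. Krt8 differed by 0.09 ± 0.25 (SE; -0.46 to 0.64), Krt18 by -0.15 ± 0.28 (-0.79 to 0.48) and Krt19 by 0.13 ± 0.50 (-0.99 to 1.25). None of the 7 passed by limma (0% of all), and 0 reached an unadjusted p under 0.05 (4.29% of all).

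The interaction, the CCL3 difference in Ccl3-/- mice minus that in C57BL/6 mice, was negative for 6 of 7 probe sets and passed for none. For the brightest Krt17 probe set it was -1.55 ± 0.62 (SE; adjusted p = 0.908 in limma), and this was the 1 of 7 at an unadjusted p under 0.05, which 5.06% of all probe sets reached. Without Ccl3-/- carrier replicate 2 it was -0.81, and without Ccl3-/- carrier replicate 1 it was -2.30. The _i_ probe set of Krt17 had -1.36 ± 0.62, while the _r_ probe set had 0.54 ± 0.41. Krt19 had -0.82 ± 0.71 (SE; -2.41 to 0.76), Krt8 had -0.31 ± 0.35 (-1.09 to 0.47) and Krt18 had -0.23 ± 0.40 (-1.13 to 0.66).

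Averaged over both injections, the brightest Krt17 probe set was 0.73 ± 0.31 higher in Ccl3-/- mice (SE; adjusted p = 0.808 in limma), with 699.4 to 2252 (median 758) on the Ccl3-/- arrays and 359.6 to 957.5 (median 518) on the C57BL/6 arrays, which overlapped. It was 0.36 without Ccl3-/- carrier replicate 2 and 1.11 without Ccl3-/- carrier replicate 1. It was the 1 of 7 at an unadjusted p under 0.05 (5.93% of all). The _i_ probe set of Krt17 was at 0.41 ± 0.31 and the _r_ probe set at -0.14 ± 0.21. Krt8 was at -0.09 ± 0.17, Krt18 at 0.04 ± 0.20 and Krt19 at 0.06 ± 0.35. Averaged over both genotypes, CCL3 against carrier gave -0.07 ± 0.17 for Krt8, -0.27 ± 0.20 for Krt18, -0.28 ± 0.35 for Krt19 and 0.04 ± 0.31 for the brightest Krt17 probe set, with 0 of 7 at an unadjusted p under 0.05 (4.53% of all). In limma 0 of 7 passed the adjusted threshold in either average (0% of all).

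**Figure D3:**
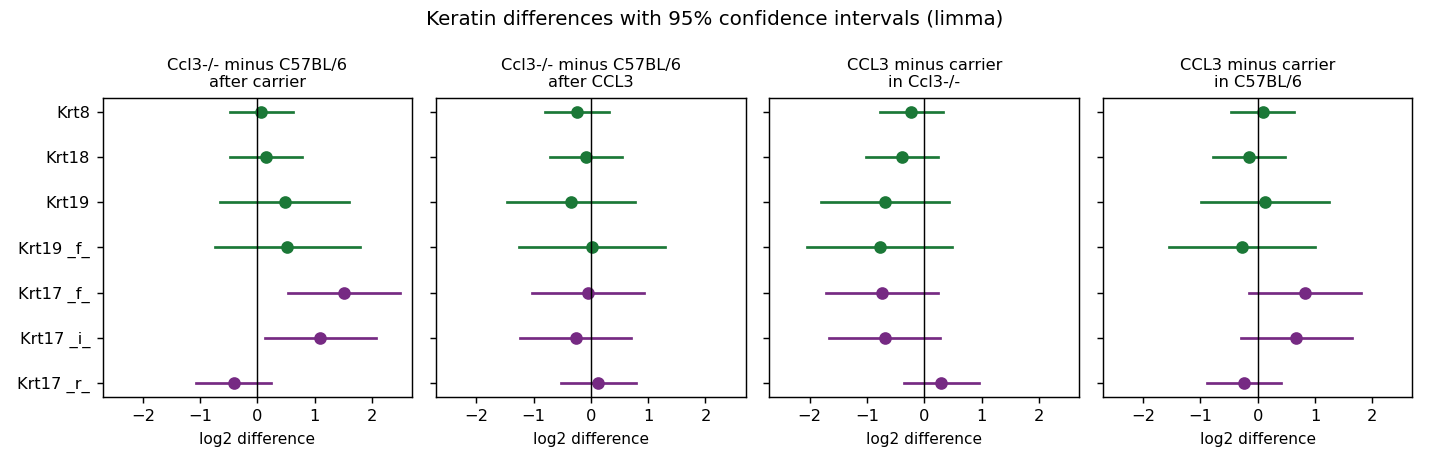
Log2 differences (points) with 95% confidence intervals (lines) of the 7 keratin probe sets above the filter in 4 comparisons, from limma fitted to all 8 arrays; simple keratins are green and Krt17 purple. The intervals of Krt8, Krt18 and the _r_ probe set of Krt17 are the narrower ones and include 0 throughout; those of the _f_ and _i_ probe sets of Krt17 exclude 0 after carrier before adjustment over all probe sets.

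Basal and simple keratins were set against each other as the mean centred log2 level of the brightest probe sets of Krt5, Krt14, Krt15 and Krt17 minus that of Krt8, Krt18 and Krt19. This value was 0.16 and 0.08 in Ccl3-/- mice given CCL3, 0.30 and -0.20 in Ccl3-/- mice given carrier, 0.08 and -0.33 in C57BL/6 mice given CCL3, and -0.21 and 0.12 in C57BL/6 mice given carrier. The groups overlapped, apart from Ccl3-/- against C57BL/6 after CCL3, where the nearest arrays lay at 0.0839 and 0.0765. The difference there was 0.24, within the pooled SD between replicates of 0.25, and the groups overlapped after quantile normalization, after cyclic loess and with the larger pseudocount. The basal side rested on 3 dim probe sets. With members above the filter alone, the basal side was the brightest Krt17 probe set (_f_). The value was then 0.31 and 0.12 in Ccl3-/- mice given CCL3, and 0.12 and 0.91 in Ccl3-/- mice given carrier. In C57BL/6 mice it was 0.08 and -0.01 with CCL3, and -0.87 and -0.65 with carrier. The C57BL/6 carrier arrays were then the lowest, which is the Krt17 pattern described above. As Krt5, Krt14 and Krt15 gave no usable signal, the contrast of basal with simple keratins could be read for Krt17 alone, whose probe sets did not behave alike.

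The array also named 26 other keratin genes, of which 18 were above the filter. The 6 brightest were Krt7, a type II chain of simple and ductal epithelia, Krt6a and Krt6b, type II chains induced in wounded and hyperproliferative epithelium, Krt4, a type II chain of mucosal stratified epithelium, and the hair keratins Krt86 and Krt32. Krt7 read 2062.1 and 2672.3 in Ccl3-/- mice given CCL3, 2747.3 and 5045 in Ccl3-/- mice given carrier, 1840.3 and 4308.9 in C57BL/6 mice given CCL3, and 2038.9 and 2196.7 in C57BL/6 mice given carrier, and its 2 highest arrays were the 2 highest of Krt19. Krt6a ranged from 523.1 in C57BL/6 CCL3 replicate 1 to 5797 in Ccl3-/- carrier replicate 2. After carrier, 5 of the 18 were higher and 13 lower in Ccl3-/- mice (median -0.31, against -0.03 over all probe sets). Of the 18, 3 reached an unadjusted p under 0.05, all lower. Among all 8150 probe sets tested, 11.4% reached it in either direction, with 522 lower. Krt6b averaged 882.5 in Ccl3-/- mice and 1838 in C57BL/6 mice (adjusted p = 0.375 in limma, n = 2 each). Krt6a, not among the 3, went the other way, at 3604.5 and 5797 in Ccl3-/- mice and 2018 and 813.5 in C57BL/6 mice. Krt36 and Krt84, hair keratins, were at -0.93 ± 0.27 and -0.86 ± 0.28. In the other comparisons 0, 1 or 2 of the 18 reached that level, against 1.48% to 5.93% of all probe sets.

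The partners that anchor keratin filaments at desmosomes and hemidesmosomes had the same 3 arrays highest as the simple keratins in the mean of the list, though not in most of its genes. The list held 25 such genes, with 19 named by the array and 17 above the filter. Their mean centred log2 level was -0.26 and 0.04 in Ccl3-/- mice given CCL3, -0.07 and 0.15 in Ccl3-/- mice given carrier, -0.05 and 0.17 in C57BL/6 mice given CCL3, and 0.15 and -0.14 in C57BL/6 mice given carrier. Of the 17 genes, 5 had these 3 arrays highest, against 2.5% of all probe sets: Dsc2, Pkp3, Plec, Itgb4 and Col17a1. The same 3 arrays were highest for 2 of 10 respiratory epithelium genes tested and for 1 of 12 horizontal basal cell genes, again Itgb4. In the other lists this held for 0 genes. Dsp, which encodes the desmosomal linker desmoplakin, ranged from 3671.5 to 7137 and was lowest in Ccl3-/- CCL3 replicate 1. Itgb4, the integrin of hemidesmosomes, ranged from 1051.1 to 2507.4 and was lowest on that array too. After carrier, Jup, which encodes the junction protein plakoglobin, and Ppl, which encodes periplakin, were at -0.57 ± 0.25 and -0.62 ± 0.27 in Ccl3-/- against C57BL/6 mice (SE, n = 2 each, adjusted p = 0.427 and 0.437 in limma). They were the 2 of 17 at an unadjusted p under 0.05 in that comparison, against 11.4% of all probe sets, while 10 of 17 were higher and 7 lower (median 0.06).

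Horizontal basal cell genes other than keratins gave 12 measured members of 16 on the list. After carrier, 7 were higher and 5 lower in Ccl3-/- mice (median 0.18), with Sfn, which encodes the epithelial 14-3-3 protein stratifin, at 1.28 ± 0.44 and the adhesion gene Icam1 at 0.99 ± 0.39 (SE, n = 2 each, adjusted p = 0.394 and 0.412 in limma). With CCL3 against carrier in Ccl3-/- mice, 9 of 12 were lower (median -0.20). Trp63 was at -0.68 ± 0.26 and Icam1 at -0.88 ± 0.39, while Notch1, a receptor that acts in horizontal basal cells, was at 0.83 ± 0.30, each at an adjusted p of 0.940 in limma. In that comparison Trp63 did not overlap between the groups (561.5 and 663.5 after CCL3, 1174.4 and 921.1 after carrier), which held for 38.9% of all tested probe sets. None of the list passed over all probe sets.

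Sustentacular cell genes, most of them xenobiotic enzymes, had another order of arrays than Krt8 and Krt18 in the mean of the list. Of the 16 tested, 0 had the 3 highest arrays of Krt8, which is near the share of 2.5% over all tested probe sets. The list, with 16 of 24 genes above the filter, had a mean centred log2 level of -0.07 and 0.25 in Ccl3-/- mice given CCL3, 0.12 and -0.17 in Ccl3-/- mice given carrier, 0.03 and 0.14 in C57BL/6 mice given CCL3, and -0.25 and -0.04 in C57BL/6 mice given carrier. Its 2 lowest arrays, C57BL/6 carrier replicate 1 and Ccl3-/- carrier replicate 2, were the 2 highest for Krt18. Single enzymes departed from the mean: Adh7, chosen after its values were seen, was highest in Ccl3-/- carrier replicate 2 (18484.6) and C57BL/6 CCL3 replicate 2 (18451.2), the 2 highest arrays of Krt8. In C57BL/6 mice 13 of 16 were higher with CCL3 than with carrier, among them the cytochrome P450 gene Cyp2f2 at 0.91 ± 0.39 and the alcohol dehydrogenase gene Adh1 at 0.80 ± 0.31 (SE, n = 2 each, adjusted p = 0.911 in limma), while Krt8 was at 0.09 ± 0.25. C57BL/6 carrier replicate 1, the array with the high Gapdh ratio, was low for both: Cyp2f2 read 40540.9 and 45846.3 after CCL3 and 13644.6 and 38292.8 after carrier, and Adh1 read 20031.7 and 29422.1 after CCL3 and 10197.4 and 18964.1 after carrier. The part of that array in these differences was not tested. Respiratory epithelium genes, 10 of 15 measured, were highest in C57BL/6 CCL3 replicate 2 (0.26) and Ccl3-/- carrier replicate 2 (0.18). Cldn4, a tight junction gene of that list, was at 1.53 ± 0.40 in Ccl3-/- against C57BL/6 mice after carrier and at -1.55 ± 0.40 for CCL3 against carrier in Ccl3-/- mice (SE, n = 2 each, adjusted p = 0.363 and 0.722 in limma), the same directions as the brightest Krt17 probe set. Cdh1, which encodes E-cadherin, went the other way after carrier at -0.69 ± 0.27, and the mucin gene Muc1 was at -0.92 ± 0.39 for CCL3 against carrier in Ccl3-/- mice (SE, adjusted p = 0.412 and 0.940 in limma). Omp, the defining gene of mature olfactory neurons, ranged from 4251.1 to 21778.7, and so was measured on every array. Of the remaining marker lists, after carrier, squamous and wound genes had 5 of 12 higher in Ccl3-/- mice. In that list Il1rn was at 1.42 ± 0.49, Sprr1b at -0.56 ± 0.25 and Krt6b as above. Gland genes had 5 of 8 higher and mature olfactory neuron genes 3 of 4. Neuronal precursor genes had 1 of 10 higher, fibroblast and matrix genes 3 of 9, muscle genes 2 of 4 and glial genes 1 of 6. None of these genes passed the adjusted threshold.

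**Figure D4:**
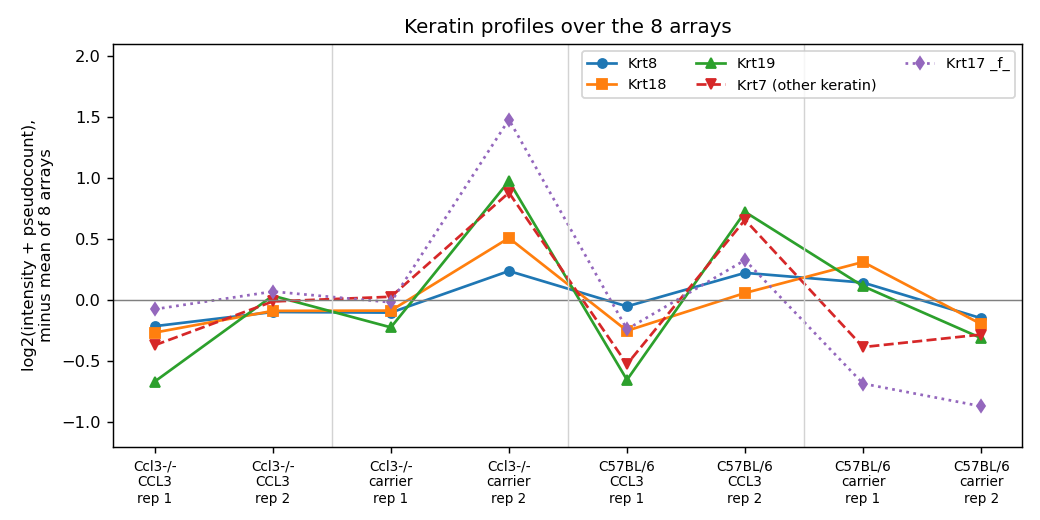
Profiles of Krt8, Krt18, Krt19, Krt7 and the brightest Krt17 probe set over the 8 arrays, as log2(intensity + 102.3) minus each gene's mean of 8 arrays; vertical lines part the groups. Krt8, Krt18 and Krt19 peak on the same 3 arrays of 3 groups, and Krt17 stands highest in Ccl3-/- carrier replicate 2 and lowest on both C57BL/6 carrier arrays.

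For each member the 2 most similar genes were taken by the root mean square difference of centred log2 profiles over the 8 arrays, among tested probe sets of other genes. For Krt18 these were Ctdsp2 (0.062) and the glycolytic enzyme gene Pkm (0.076), against a spread of Krt18 itself of 0.262. For Krt8 they were Syngr2 (0.080) and Grina (0.084), against 0.165. For Krt19 they were the matrix protease gene Mmp9 (0.231) and the keratin gene Krt7 (0.233), against 0.560. For Krt17 they were the stress-response gene Nupr1 (0.192) and the transcription factor gene Isl1 (0.272), against 0.670. Nupr1 read 11530 and 11502 in Ccl3-/- mice given CCL3, 13232 and 45326 in Ccl3-/- mice given carrier, 10746 and 15120 in C57BL/6 mice given CCL3, and 8021 and 8963 in C57BL/6 mice given carrier, with the same array standing highest as for Krt17. For the dim members they were Actn1 and Hipk3 (Krt5), Timp3 and Usp9x (Krt14), and Gpank1 and Preb (Krt15), likenesses that rest on signals under the filter.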

How the data were processed

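Total RNA of olfactory mucosa was measured on 8 single-colour arrays, grouped by their titles. The deposited table holds 1 linear intensity per probe set and array, scaled by the authors before deposit; the software is not given in the sources used here. Trimmed means (2% off each end) differed by at most 0.00434%, so nothing was normalized again. Of 12488 probe sets, 10855 had 1 gene symbol, 396 several and 1237 none; 16 gene IDs found no match in the GRCm38.p6 table. Values were analysed as log2(intensity + 102.3), the 20th percentile. A probe set other than a control was tested where at least 2 arrays exceeded 362.7, leaving 8150. limma 3.58.1 in R 4.3.3 fitted the 4 group means with an intensity trend (4 residual degrees of freedom) and Benjamini-Hochberg adjustment. Of probe sets of 1 gene the brightest stood for it in lists, and all keratin probe sets are given. Genes were named by a rule: all keratin members, the 6 brightest other keratins, up to 4 genes of a list at an unadjusted p under 0.05 in the comparison described, the 2 nearest profiles, and Trp63, Dsp, Itgb4, Omp and Cyp2g1 always. Lists given by counts alone name no gene. The members and lists were chosen with earlier results of these data known. The fit was tested on simulated data. Alternatives covered normalization, pseudocount, filter, trend, the replicate number as a block, the groups fitted and each array left out. Cyp2g1 is not analysed here.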

Additional observations from a re-analysis of the deposited data

How the results depend on the processing

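Of 455 keratin differences recomputed under other settings, all stayed within 1 SE of the reported value and 13 changed sign. The lowest adjusted p in limma was 0.284. The filter, trend, block and groups-fitted settings cannot move a difference itself, only its error. Only the normalization and pseudocount settings could therefore change a value or its sign. Of 392 recomputed with 1 array left out, 34 moved by more than 1 SE and 51 changed sign. The 392 include cases where the array left out was in neither group compared, and there the difference cannot change. The count of probe sets called over the whole table was 0 in every comparison and became 1 with the replicate block for Ccl3-/- against C57BL/6 after carrier, for the genotype average and for the CCL3 average. It was also 1 after CCL3 when only the groups compared were fitted. With 1 array left out the count ranged from 0 to 110 for the genotypes after carrier, 0 to 73 for CCL3 in C57BL/6 mice and 0 to 23 for the CCL3 average. The highest counts all came without C57BL/6 carrier replicate 2. It ranged from 0 to 1 after CCL3, for CCL3 in Ccl3-/- mice and for the genotype average. Replicate numbers showed little sign of pairing the samples over the whole table: deviations of same-numbered arrays correlated between -0.16 and 0.18 over 6 pairs of groups. Such correlations do not test a pairing limited to some genes.

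The basal minus simple value, with members above the filter alone (chosen after seeing the data), was 1.28 for the genotypes after carrier, -0.30 for CCL3 in Ccl3-/- mice, 0.80 for CCL3 in C57BL/6 mice, -1.10 for the interaction, 0.73 for the genotype average and 0.25 for the CCL3 average. The values reported were 0.10, 0.07, -0.08, 0.15, 0.17 and -0.01 in that order. Above the filter, the basal side was the _f_ probe set of Krt17 alone. Quantile normalization gave -0.12 and cyclic loess -0.04 for the interaction, 0.34 and 0.29 for the genotypes after carrier, and 0.16 and 0.14 for CCL3 in C57BL/6 mice, and the cause was not tested. With 1 array left out, also added after seeing the data, it ranged from -0.15 to 0.34 for the genotypes after carrier, 0.04 to 0.45 after CCL3, -0.18 to 0.32 for CCL3 in Ccl3-/- mice, -0.28 to 0.12 for CCL3 in C57BL/6 mice, -0.10 to 0.39 for the interaction, 0.05 to 0.29 for the genotype average and -0.13 to 0.12 for the CCL3 average. The number of arrays, 2 in each group, limits the precision of every value.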
